A study of Danio rerio with 72 samples.

Results

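The caudal vein plexus (CVP) was compared with the caudal vein (CV) in zebrafish tails, taken from embryos 52 hours post fertilization. The members are the 24 libraries labelled CV or CVP among the 72 of the study, 6 of each kind in each of 2 series named M and Z. They were taken by their labels, with earlier results of these data known. Tissue was cut by laser from frozen cross-sections stained with cresyl violet, and RNA with poly(A) tails was amplified from each capture and sequenced. Each section also gave captures of the caudal artery (CA), neural tissue (N) and left and right muscle (L, R), so that CV and CVP of the same section form a pair. Layers 2, 6, 8, 12, 15 and 17 were captured for series M, and layers 1, 6, 10, 19, 22 and 25 for series Z. No mutant, transgene or treatment is named for any group. The labels do not say what M and Z stand for or which embryo a section came from, so the p-values measure the spread between sections and are too small if sections of a series share an embryo.

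The caudal vein of the zebrafish embryo drains the tail and remodels into a plexus of venous channels, which forms the core of the caudal hematopoietic tissue. Blood stem and progenitor cells settle there among endothelial cells, stromal cells that secrete the chemokine Cxcl12a, and macrophages and neutrophils. Its venous endothelium also clears particles and macromolecules from the blood through scavenger receptors such as the stabilins Stab1 and Stab2 and the mannose receptor Mrc1a. The skin and the ventral fin fold, a double sheet of epidermis stiffened by actinotrichia, lie just below the vein.

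Captures were shallow, and CVP captures held more kinds of RNA than CV captures. Reads recovered per library ran from 75007 to 487552 in CV and from 91613 to 324253 in CVP of series M. In series Z they ran from 260911 to 4009980 and from 215243 to 2845581. Median depth in series M was 106468.5 reads in CV and 267845.5 in CVP. CVP was deeper there in 5 of 6 sections (exact sign-flip permutation p = 0.0938, and 0.161 after the adjustment given below). In series Z the medians were 857256 and 961353.5, with CVP deeper in 1 of 6 sections (exact permutation p = 0.875). The number of genes detected was higher in CVP in 5 of 6 sections of series M (median 10750.5 against 7469, exact sign-flip permutation p = 0.0625) and in 6 of 6 of series Z (12858 against 10608, p = 0.0312, the smallest that 6 sections allow). After thinning every library of a series to the same depth it was still higher in 5 of 6 and 6 of 6 sections (exact permutation p = 0.0938 and 0.0312). None of these passed Benjamini-Hochberg adjustment over the 12 library measures tested in the 2 series (adjusted exact permutation p = 0.15 and 0.125 before thinning, 0.161 and 0.125 after it). Over all genes tested, the median of CVP minus CV on the log2(FPKM + 1) scale was 0.56 for series M and 0.27 for series Z. FPKM is the read count of a gene divided by its length and by the library's total. Each library was also correlated with the mean of each region, and its own region ranked first for 11 of 12 in series M and for 9 of 12 in series Z. CVP of layer 17 in series M and CVP of layers 22 and 25 in series Z resembled CV more, and CV of layer 25 resembled CVP more, so values without these layers are given below. Because these layers were picked for this resemblance, a larger difference or more calls without them follow in part from the choice and are not further support.

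The venous label held for both captures of series Z and for CVP of series M, but hardly for CV of series M. The summed FPKM of 14 venous scavenger endothelial genes was 967 to 1368 in CV and 1329 to 2278 in CVP of series Z. In series M it was 601 to 2321 in CVP and 65.5 to 353 in CV, with a median of 191 in CV. Neural captures of that series had at least 268, so the sum is not particular to venous endothelium. In those neural captures stab1, stab2 and mrc1a had medians of 3.74, 1.18 and 1.69 FPKM. In CV of series M their medians were 0, 4.02 and 7.62, and lyve1b and gpr182 had medians of 0 in both. Of these 14 genes, 4 were listed at 0 in all 6 CV libraries of series M and 0 in all 6 CVP libraries. The pan-endothelial genes gave a like picture of CV against CVP. Their sums were 17.4 to 328 in CV and 347 to 1117 in CVP of series M. In series Z they were 455 to 854 and 639 to 1232. The series M CV median of this list, 114, lay above the highest neural capture of that series (69.0). In bulk captures, fewer cells of a type and less RNA per cell cannot be told apart.

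Genes were tested with limma on log2(FPKM + 1), fitting region and section together, and a gene was called where its p, adjusted after Benjamini and Hochberg over all genes, was under 0.05. Differences below are CVP minus CV on that scale, with the standard error of a fit in which all 6 regions share 1 estimate of spread. For aplnra in series M this error was 0.72, and it was 1.15 when only CV and CVP libraries entered. In series M, 775 of 18263 genes were higher in CVP (4.24%) and 120 were lower (0.657%). Series Z gave 33 genes higher (0.199%) and 40 lower (0.242%) of 16547. Of 15571 genes tested in both, 8 were higher in both (0.0514%), 19 were lower in both (0.122%) and 0 were called in opposite directions. Another description, with no test or adjustment for the number of genes, asks that the libraries do not overlap at all. It held for 154 genes higher (0.843%) and 17 lower (0.0931%) in CVP in series M, and for 48 (0.29%) and 34 (0.205%) in series Z. Series M without layer 17 gave 1249 genes higher (7.33%) and 222 lower (1.3%) of 17040. Under quantile scaling, which removes the shift of the median, series M had 208 calls higher and 119 lower, of which 202 and 91 were among the first calls, and the higher share of its calls went from 86.6% to 63.6%. Series Z then had 15 higher and 45 lower, and its share went from 45.2% to 25.0%.

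**Figure D1:**
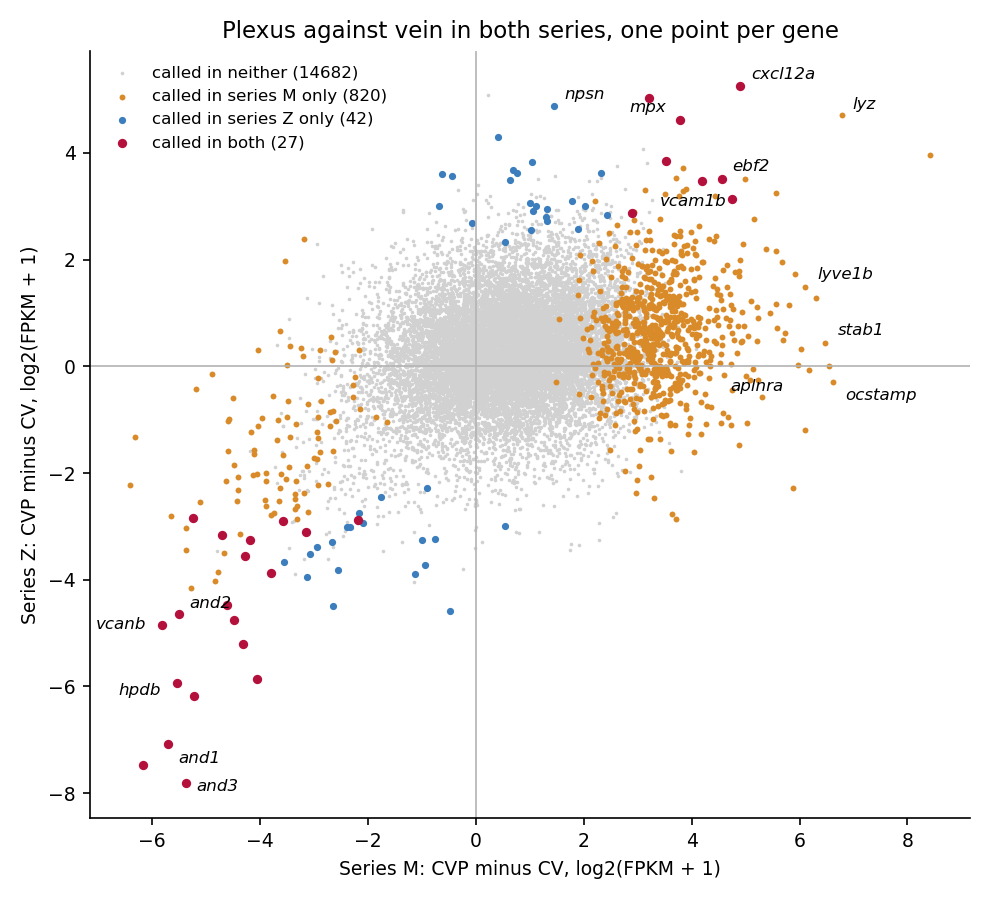
Each point is one of the 15571 genes tested in both series, placed by its CVP minus CV difference on the log2(FPKM + 1) scale in series M (horizontal) and series Z (vertical). The 27 genes called in both (dark red) lie in the upper right and lower left corners, while the 820 called in series M only (orange) spread mostly along the right side, where series Z is near 0.

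A niche chemokine, an adhesion molecule and the myeloperoxidase of neutrophils were higher in the plexus than in the vein in both series. The 6 named genes higher in CVP in both were cxcl12a, vcam1b, mpx, ebf2, pcdh7b and tgfb1b, and 2 more carry clone names. They encode a chemokine that holds blood progenitors in the niche (cxcl12a), an adhesion molecule of endothelial and stromal cells (vcam1b), the myeloperoxidase of neutrophils (mpx), a transcription factor of mesenchymal and neural cells (ebf2), a protocadherin (pcdh7b) and a transforming growth factor (tgfb1b).

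In series M, cxcl12a was listed at 0 in 5 of 6 CV libraries and at 3.16 FPKM in that of layer 17, while CVP ran from 10.8 through a median of 42.6 to 121. Series Z showed 0, 0.105 and 7.83 FPKM (lowest, median and highest) in CV against 35.1, 64.7 and 181 in CVP. CVP exceeded CV in 6 of 6 sections of both series and the listed values did not overlap. The difference was 4.91 ± 0.93 (adjusted p = 0.00142) in series M and 5.26 ± 0.88 (adjusted p = 0.00063) in series Z. At the depth of the series M CV libraries, 3 reads of cxcl12a, the limit that a count of 0 allows, are worth 2.02 to 13.1 FPKM. CVP of layers 15 and 17 (10.8 and 12.2 FPKM) lay below the upper of these limits, and the lowest rests on 3 reads. Their separation from all CV libraries is not shown. These limits cover counting error only. cxcl12a was not particular to the plexus, since its median in the caudal artery was 105 FPKM in series M and 140 in series Z, and the artery was not compared here. It kept its call without layer 17 (adjusted p = 0.000168) and without layers 22 and 25 (0.00997). With a covariate for the number of genes detected, the adjusted p was 0.0562 in series M and 0.00159 in series Z, and none of the 6 named genes was then called in both series. With CV and CVP libraries alone cxcl12a was the 1 gene called higher in both (adjusted p = 0.0249 and 0.0152), and mpx and tgfb1b were too low to be tested in series M.

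mpx was listed at 0 in all 6 CV libraries of series M and reached 0.809, 8.86 and 159 FPKM (lowest, median and highest) in CVP. CV of series Z had 0, 0.41 and 21.6 FPKM and CVP had 17.7, 69.7 and 142. CVP was higher in 6 of 6 sections of both series, without overlap of the listed values in series M and with the CV libraries of layers 10 and 25 the highest of the vein in series Z. In the series M CV libraries 3 reads of mpx are worth 1.61 to 10.5 FPKM. CVP of layers 6, 15 and 17 (6.58, 5.72 and 0.809 FPKM) lay below the upper of these limits, and the lowest rests on 1 read. For these layers the separation is not shown. The difference was 3.78 ± 0.78 (adjusted p = 0.00343) in series M and 4.62 ± 0.73 (adjusted p = 0.00029) in series Z. Its adjusted p was 0.067 in series M under quantile scaling and 0.0832 in series Z without layers 22 and 25.

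vcam1b was likewise listed at 0 in all 6 CV libraries of series M, against 4.95, 17.9 and 77.2 FPKM in CVP (difference 4.19 ± 0.74, adjusted p = 0.00067). In those CV libraries 3 reads of vcam1b are worth 1.41 to 9.17 FPKM. CVP of layers 2, 6 and 17 (9.07, 8.06 and 4.95 FPKM) lay below the upper of these limits. For these layers the separation of vcam1b is not shown. In series Z it was at 0 in 5 of 6 CV libraries and at 2.49 FPKM in layer 19, against 0, 17.8 and 76.6 FPKM in CVP (3.47 ± 0.82, adjusted p = 0.0389). Only the CVP library of layer 25 was at 0. The series Z call was lost without layers 22 and 25 (adjusted p = 0.084), as were those of ebf2 (0.163) and pcdh7b (0.373). With CV and CVP libraries alone the series Z calls of vcam1b, ebf2 and pcdh7b were also lost (adjusted p = 0.254, 0.192 and 0.292). The neural captures had medians of 17.5 and 5.61 FPKM for vcam1b.

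ebf2 ran from 6.37 to 159 FPKM in CVP of series M, with 5 of 6 CV libraries at 0 and layer 17 at 13.2. In series Z it ran from 3.2 to 66.5 FPKM in CVP and from 0 to 4.37 in CV. The differences were 4.56 ± 0.84 and 3.51 ± 0.84 (adjusted p = 0.00101 and 0.0464). The neural captures carried more ebf2, with medians of 62.2 and 115 FPKM. In the caudal artery its medians were 65.9 FPKM in series M and 29.9 in series Z, against 35.4 and 27.7 in CVP. The artery was not compared by test here. The neural marker elavl3, which encodes an RNA-binding protein of neurons, was at 0 in 4 of 6 CVP libraries of series M, had 10.5 FPKM in that of layer 8, and reached 2.73 FPKM at most in CVP of series Z. The summed FPKM of the 18 neural genes had medians of 17.3 in CV and 64.3 in CVP of series M, higher in CVP in 5 of 6 sections, and of 28.6 and 20.5 in series Z, higher in 3 of 6. Neural captures had at least 4650 and 5034. The part of neural RNA in these differences was not tested.

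pcdh7b rose by 4.74 ± 0.93 in series M (adjusted p = 0.00214), from a CV median of 0 to a CVP median of 36.2 FPKM, and by 3.14 ± 0.70 in series Z (adjusted p = 0.0258), from 0 to 20.4. The neural captures had more pcdh7b, with medians of 55.7 and 28.2 FPKM, and the caudal artery of series M had 34.7. tgfb1b rose by 2.89 ± 0.75 and 2.88 ± 0.66 (adjusted p = 0.0182 and 0.0302), but only 3 of 6 CVP libraries showed it in series M, and 4 of 6 did in series Z.

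**Figure D2:**
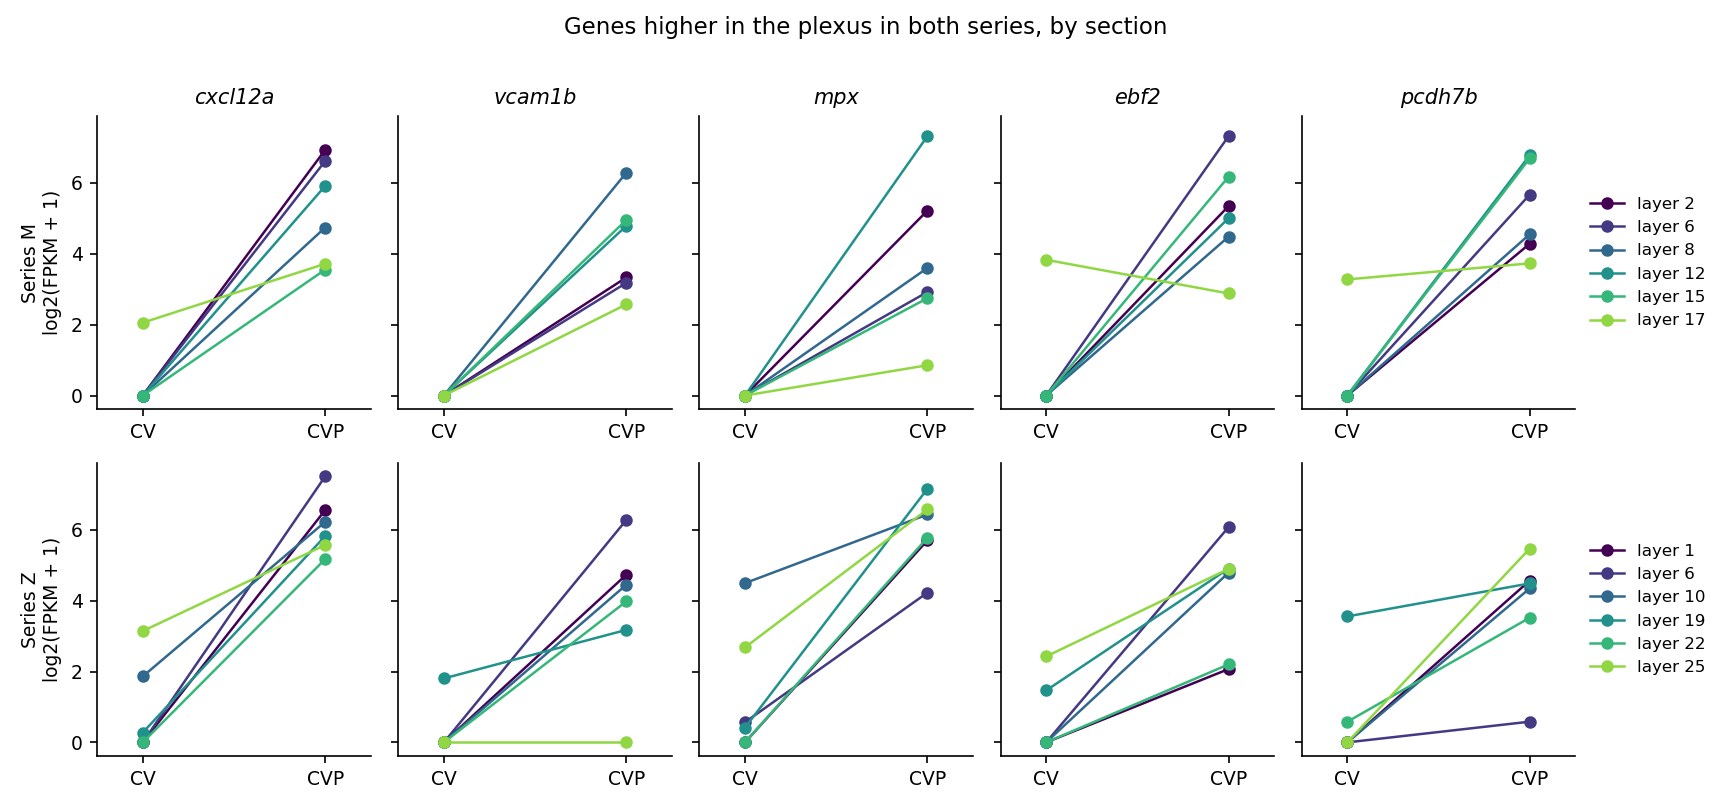
Lines join CV and CVP of the same section for 5 genes higher in CVP in both series, on the log2(FPKM + 1) scale, with 1 colour per layer. Most CV points lie at or near 0, and cxcl12a rises in 6 of 6 sections of both series.

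Actinodin genes of the fin fold and the tyrosine breakdown genes hpdb and fah were called lower in the plexus than in the vein in both series. The series Z call of fah did not hold with fewer libraries, as given below. Of the 19 genes lower in CVP in both, 14 have gene names. They include and1, and2 and and3, which encode the actinodins of actinotrichia, the matrix proteoglycan gene vcanb, the transcription factors bhlha9, dlx5a and tbx3a of fin and limb development, the keratin gene krt97, and hpdb and fah, which encode enzymes of tyrosine breakdown. The other named ones are arhgef25b, ponzr3, ttc36 and FBLN1, the last for the matrix protein fibulin.

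and2 was abundant in the vein, with 1001, 1976 and 4492 FPKM (lowest, median and highest) in CV of series M and 3139, 5558 and 8245 in CV of series Z. CVP of series M had 5.43, 24.4 and 2859 FPKM and CVP of series Z had 30.2, 231 and 1511. The groups did not overlap in series Z. In series M a single CVP library, that of layer 17, lay within the range of CV, and the other CVP libraries reached at most 50.4 FPKM. and2 fell by 5.50 ± 1.06 in series M (adjusted p = 0.00185) and by 4.64 ± 0.94 in series Z (adjusted p = 0.0102). Without layer 17 it fell by 6.83 (adjusted p = 2.85e-07), and without layers 22 and 25 by 5.83 (0.00633).

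and1 had 121, 235 and 952 FPKM in CV of series M, where CVP was at 0 in 4 of 6 libraries, at 21.1 in layer 6 and at 1559 in layer 17. In series Z it had 481, 604 and 1798 FPKM in CV and 0, 2.14 and 87.5 in CVP, without overlap. The differences were -5.71 ± 1.32 (adjusted p = 0.00839) and -7.08 ± 0.97 (adjusted p = 2.57e-05). Leaving out layer 17, the 1 section of series M with and1 higher in CVP, gave -7.59 (adjusted p = 1.12e-06). Leaving out layer 8 or 12 of series M ended the call (adjusted p = 0.0637 and 0.06). and3 differed by -5.37 ± 1.42 and -7.81 ± 0.86 (adjusted p = 0.0205 and 1.2e-06). With the covariate for genes detected, and1, and2 and and3 had adjusted p of 0.133, 0.062 and 0.509 in series M, and kept their calls in series Z.

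vcanb had 76.3, 164 and 312 FPKM in CV of series M and 44.6, 71.9 and 91.4 in series Z. Its CVP libraries held at most 4.24 FPKM in series Z and 0.59 in series M outside layer 17, which had 363. It fell by 5.81 ± 1.01 in series M (adjusted p = 0.00053) and by 4.85 ± 0.69 in series Z (adjusted p = 5.13e-05). bhlha9 was listed at 0 in 5 of 6 CVP libraries of both series, with 335 FPKM in layer 17 of series M and 13.5 in layer 1 of series Z. It fell by 4.61 ± 1.02 and 4.47 ± 0.68 (adjusted p = 0.00623 and 0.000139). dlx5a fell by 4.31 ± 1.02 and 5.20 ± 0.85 (adjusted p = 0.0103 and 0.000471). With the same covariate vcanb, bhlha9 and dlx5a were not called in series M (adjusted p = 0.0523, 0.167 and 0.0936), and bhlha9 was not called in series Z with CV and CVP libraries alone (0.104).

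hpdb, the gene of 4-hydroxyphenylpyruvate dioxygenase, had 99.7, 387 and 1240 FPKM in CV and 0, 10.2 and 210 in CVP of series M. In series Z it had 25.6, 244 and 317 FPKM in CV and 0, 0.217 and 32.9 in CVP. CVP was lower in 6 of 6 sections of both series, with a small overlap of the groups. The differences were -5.54 ± 1.08 (adjusted p = 0.00196, and 0.0562 with the covariate for genes detected) and -5.93 ± 0.88 (adjusted p = 0.000119). fah, whose product acts at the end of the same pathway, fell by 3.80 ± 0.96 and 3.88 ± 0.84 (adjusted p = 0.0151 and 0.0185). hgd, the homogentisate dioxygenase gene between them, fell by 3.52 ± 0.72 in series Z (adjusted p = 0.0108) and differed by -3.08 ± 1.06 in series M (adjusted p = 0.0828). Of the 5 genes of the pathway tested in each series, 2 fell in series M and 3 in series Z. Among all genes tested, 0.657% (series M) and 0.242% (series Z) were called lower. Adding the covariate for genes detected left 0 pathway calls in series M and 3 in series Z. CV and CVP libraries alone gave 2 calls among 3 tested in series M, and in series Z 1 among 4, that of hpdb. Series Z without the layers that resembled the other region also called 1 of 4, again hpdb. The series Z calls of fah and hgd did not hold in either run. gstz1 differed by -0.02 ± 0.93 and -1.98 ± 1.04 (adjusted p = 1.0 and 0.528), and tat, whose product opens the pathway, by 1.00 ± 1.08 and 0.68 ± 0.84 (adjusted p = 0.646 and 0.846). These enzymes were grouped after their values were seen.

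**Figure D3:**
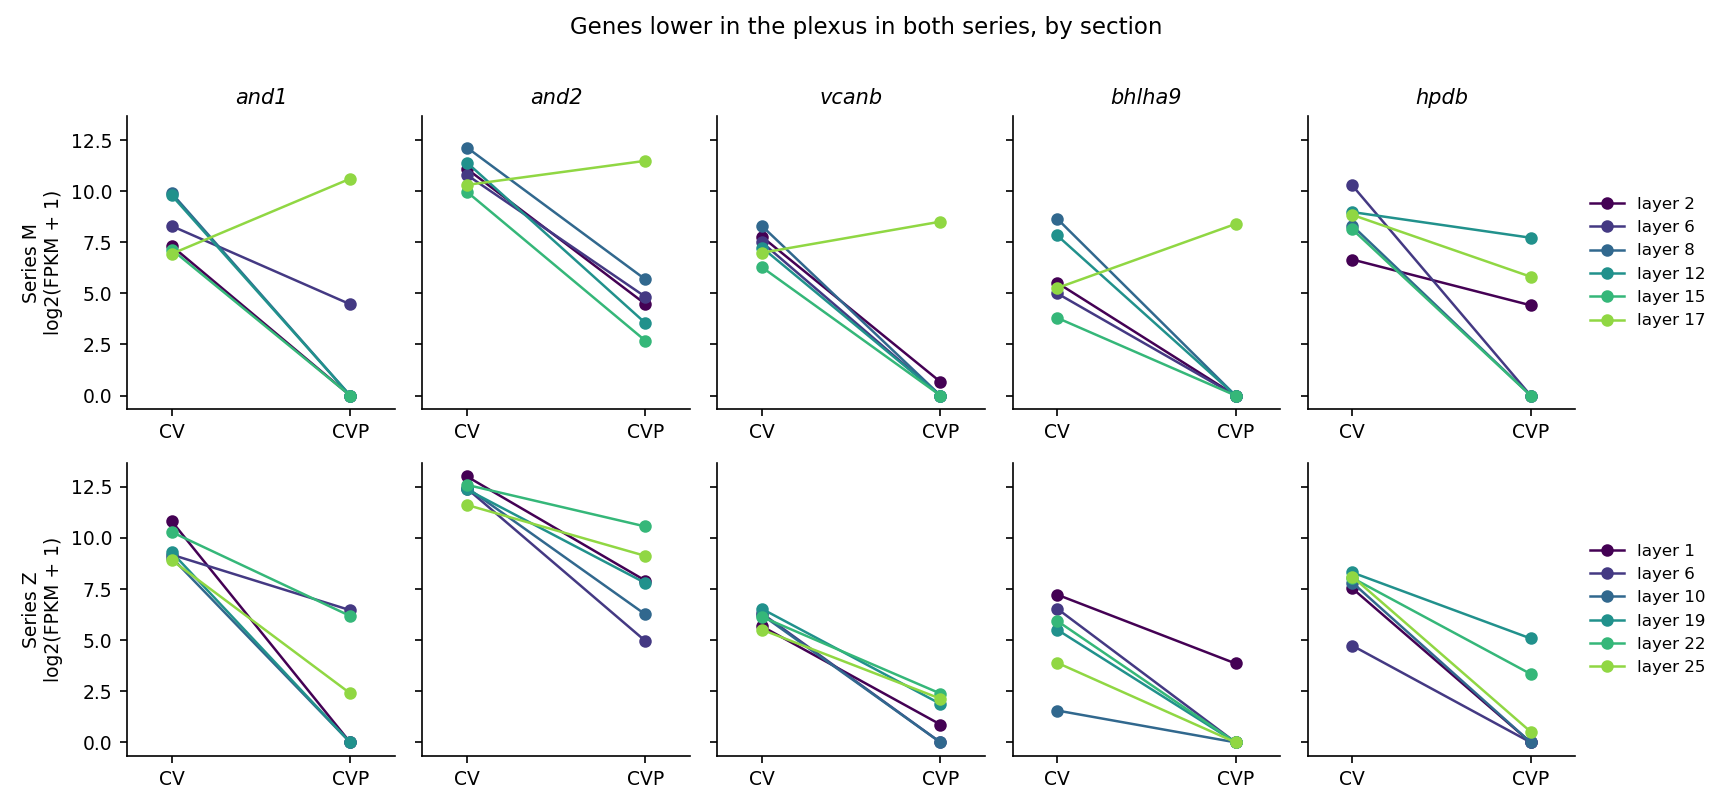
Lines join CV and CVP of the same section for 5 genes lower in CVP in both series, on the log2(FPKM + 1) scale, with 1 colour per layer. All sections of series Z fall, whereas layer 17 of series M (yellow) rises from CV to CVP for and1, and2, vcanb and bhlha9.

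Of the fin fold genes, 4 of 16 tested fell and 0 rose in series M, and 6 of 15 fell and 0 rose in series Z, where msx1b and msx2b, homeobox genes of the fin fold, joined and1, and2, and3 and dlx5a. For comparison, 0.657% (series M) and 0.242% (series Z) of all genes were called lower. The list's median difference was -2.27 and -1.97, against 0.56 and 0.27 for all genes. Its summed FPKM was 2117 to 7987 in CV of series M and 3991 to 12250 in CV of series Z. CVP had 128 to 7360 with a median of 182 in series M, and 122 to 1813 with a median of 331 in series Z. Neural captures reached at most 125 and 68.8, so that these genes were high in the vein captures beyond the other tissues of the section, apart from the caudal artery of series M, where the highest library had 13250. Without layer 17, 6 of 16 fell in series M, and without layers 22 and 25, 3 of 14 fell in series Z. Adding the covariate for genes detected left 0 fin fold calls in series M and 6 in series Z. CV and CVP libraries alone gave 4 calls among 16 tested in series M and 4 among 15 in series Z.

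Some skin genes were called lower in the plexus of series M, and the list median lay in the same direction in series Z. Of 25 epidermal genes tested in series M, krt5, evpla, ppl, pkp3a and anxa1c fell and 0 rose, with a list median of -2.40. Over all genes 0.657% were lower in series M. Without layer 17, 14 of 25 fell, beside 1.3% of all genes. With the covariate for genes detected 0 epidermal genes were called lower in series M. With CV and CVP libraries alone 10 of 22 tested were called, and under quantile scaling 8. In series Z 0 of 24 were called, with a median of -1.42. krt5, a keratin gene of basal epidermis, had 905, 1446 and 3393 FPKM in CV and 0, 153 and 1196 in CVP of series M, and 610, 1049 and 1342 against 63.0, 353 and 795 in series Z. CVP was lower in 6 of 6 sections of both series. The difference was -4.48 ± 0.99 in series M (adjusted p = 0.00633) and -1.85 ± 0.94 in series Z (adjusted p = 0.497). krt4, a keratin gene of the skin surface, was not called in series M or Z (limma adjusted p = 0.0836 and 0.455). Its differences were -3.73 ± 1.29 and -1.89 ± 0.90, with CVP lower in 5 of 6 and 6 of 6 sections. In series M it was called with CV and CVP libraries alone (adjusted p = 1.8e-06) and without layer 17 (0.00898). It was not called there under quantile scaling (0.115) or with the covariate for genes detected (0.17). It reached 23774 FPKM in CVP of layer 17 in series M, against at most 1988 in the other CVP libraries of that series. The summed epidermal FPKM was 20957 to 64417 in CV and 993 to 64331 in CVP of series M, and 12518 to 31855 against 3422 to 18028 in series Z. Whether skin in the vein captures has a part in the other differences was not tested.

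Venous endothelial genes were called higher in the plexus in series M and not in series Z. Of the 14 venous scavenger endothelial genes, 9 rose in CVP of series M and 0 fell, with a list median of 3.74. Series Z called 0 of 14, with a median of 0.50. Among all genes 4.24% were higher in series M and 0.199% in series Z. The 9 were stab1, stab2, mrc1a, lyve1a, lyve1b, gpr182, ephb4a, dab2 and lgmn. With a covariate for the number of genes detected 3 members were called higher, and with CV and CVP libraries alone 6 of 13 tested.

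In CVP of series M stab1 had 84.5, 168 and 231 FPKM, while 5 of 6 CV libraries listed it at 0 and layer 17 had 24.2. In those CV libraries 3 reads of stab1 are worth 0.674 to 4.38 FPKM. In series Z, CV had 24.4, 61.7 and 123 FPKM and CVP had 42.3, 76.7 and 163, with overlap. The difference was 6.47 ± 0.78 in series M (adjusted p = 2.68e-06) and 0.44 ± 0.87 in series Z (adjusted p = 0.919). The series differed by 6.04 (adjusted p = 0.00422).

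stab2 and mrc1a showed the same split with more RNA. stab2 had 0, 4.02 and 120 FPKM in CV and 133, 305 and 468 in CVP of series M, a difference of 5.69 ± 1.01 (adjusted p = 0.000712). The CV library of 120 FPKM is that of layer 17, and the next had 6.57. In series Z stab2 had 58.3, 105 and 181 FPKM in CV and 68.5, 163 and 277 in CVP, a difference of 0.48 ± 0.85 (adjusted p = 0.904). mrc1a differed by 5.74 ± 0.97 in series M (adjusted p = 0.000441) and by 0.63 ± 0.79 in series Z (adjusted p = 0.852), although CVP was the higher in 6 of 6 sections of series Z too. For these 2 genes the difference between series had adjusted p of 0.0743 and 0.0616.

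lyve1b, a hyaluronan receptor gene of veins and lymphatics, and gpr182, a chemokine scavenging receptor gene, were listed at 0 in all 6 CV libraries of series M. lyve1b had 19.0, 53.1 and 245 FPKM in the CVP libraries and gpr182 had 6.24, 111 and 193. In the series M CV libraries 3 reads are worth 7.14 to 46.4 FPKM for lyve1b and 4.15 to 27.0 for gpr182. The lowest CVP values of both genes lie within these limits and rest on 5 and 3 reads, so a listed 0 does not show absence. The differences were 6.11 ± 0.78 and 6.03 ± 0.88 (adjusted p = 5.87e-06 and 6.63e-05). In series Z lyve1b differed by 1.49 ± 0.64 (adjusted p = 0.41) and gpr182 by 0.32 ± 0.88 (adjusted p = 0.948). lyve1a lay on opposite sides, 3.71 ± 0.87 in series M (adjusted p = 0.00947) and -2.86 ± 0.85 in series Z (adjusted p = 0.149), where CVP was lower in 6 of 6 sections. Its difference between series was 6.57 (adjusted p = 0.00362).

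aplnra, a receptor gene for apelin in endothelium, gave one of the clearest differences between the series. CV of series M was at 0 in 5 of 6 libraries and at 5.63 FPKM in layer 17, and CVP had 38.2, 110 and 198. CV of series Z had 51.6, 83.8 and 137 FPKM and CVP had 45.2, 89.6 and 123. The groups did not overlap in series M and overlapped in series Z. The differences were 6.18 ± 0.72 (adjusted p = 1.69e-06) and -0.07 ± 0.77 (adjusted p = 0.998), and they differed between series by 6.25 (adjusted p = 0.000541, and 0.0225 with CV and CVP libraries alone). The median of the caudal artery was 0 in series M and 29.2 FPKM in series Z. Its ligand gene apln did not pass in either series, with 2.49 ± 0.96 and 2.89 ± 0.86 (adjusted p = 0.125 and 0.15), and the paralog aplnrb had 1.77 ± 0.95 and 0.99 ± 0.86 (adjusted p = 0.283 and 0.763).

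**Figure D4:**
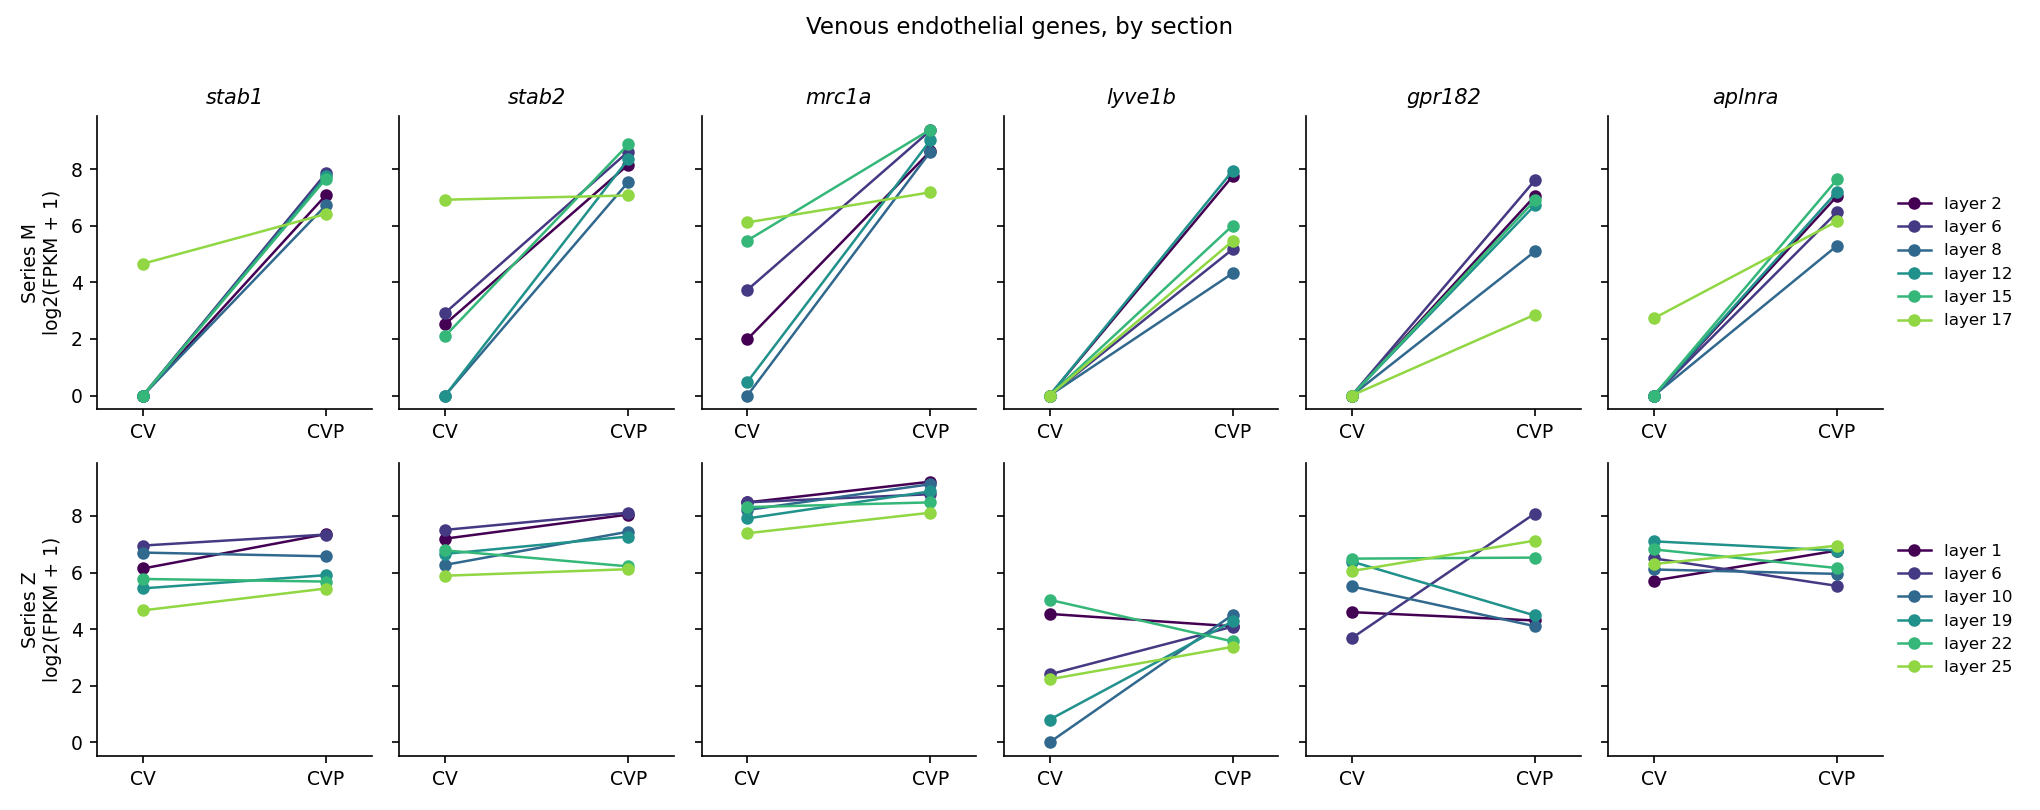
Lines join CV and CVP of the same section for 6 venous endothelial genes, on the log2(FPKM + 1) scale, with 1 colour per layer. In series M all but layer 17 (yellow) start at or near 0 in CV for stab1 and aplnra, whereas the series Z lines start high and run nearly flat for stab1, stab2, mrc1a and aplnra.

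The pan-endothelial genes followed the venous ones. Of 17 tested in series M, 10 rose in CVP and 0 fell, with a list median of 3.14. In series Z 0 of 18 were called, with a median of 0.31. The shares higher over all genes were 4.24% and 0.199%. cdh5, the gene of vascular endothelial cadherin, had 0, 12.2 and 28.1 FPKM in CV and 30.2, 79.3 and 191 in CVP of series M, without overlap. The difference was 3.27 ± 0.77 (adjusted p = 0.00933) there and -0.12 ± 0.64 in series Z (adjusted p = 0.984). The receptor kinase genes tie1 and kdrl rose by 4.57 ± 0.79 and 3.46 ± 0.87 in series M (adjusted p = 0.00052 and 0.015), and the tight junction gene cldn5b by 4.73 ± 0.86 (adjusted p = 0.000972). In the arterial list, dlc, a Notch ligand gene, and notch1b rose in series M, 2 of 11 tested, and 0 of 10 were called in series Z. The calls of cdh5 and kdrl were lost with CV and CVP libraries alone (adjusted p = 0.0863 and 0.137), where 4 of 13 pan-endothelial genes tested were called. With the covariate for genes detected 2 were called.

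Between the series the CVP minus CV difference itself was called for 28 genes larger in series M (0.18%) and 2 larger in series Z (0.0128%) of 15571. Of the 767 genes higher in series M only, 728 were tested in series Z and 27 of them passed this test, so most calls of series M alone were not shown to differ from series Z. The 5 named genes with the largest positive differences were ocstamp, lyve1a, ube2g2, cyp1a and aplnra. ocstamp, named for osteoclast fusion, had 0 FPKM in 4 of 6 CV libraries and 64.7 to 457 in CVP of series M. In series Z it had 22.8 to 458 in CV and 22.6 to 501 in CVP. Its differences were 6.62 ± 0.85 and -0.29 ± 0.96 (adjusted p = 5.87e-06 and 0.962), 6.91 apart (adjusted p = 0.00362). cyp1a, a cytochrome P450 gene of xenobiotic metabolism, differed by 4.88 ± 0.81 and -1.47 ± 0.94 (adjusted p = 0.000374 and 0.638), 6.35 apart (adjusted p = 0.00535). With CV and CVP libraries alone the difference was called for 2 genes, aplnra and ocstamp.

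All genes called in a series were also set against the other series, which shares no library with it. The 8 genes higher and 19 lower in both series are among them, so their direction in the other series was already known. The 775 genes higher in series M had a median of 0.62 in series Z, with 544 of 736 tested above 0 (73.9%), beside 62.8% and a median of 0.27 for all genes. The 120 lower ones had a median of -1.89, with 98 of 111 below 0 (88.3%), beside 37.2% for all genes. Of the 40 genes lower in series Z, 37 of 38 tested in series M were below 0 there (97.4%, median -3.14), beside 30.4% of all genes. Of the 33 higher ones 27 of 31 were above 0 (87.1%, median 1.32), beside 69.6% of all genes and their median of 0.62.

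Of the neutrophil genes, some rose in the plexus of both series, and mpx was called in both. In series M 5 of 17 tested rose, mpx, lyz, cyba and srgn among them, and in series Z mpx, npsn and lect2l, 3 of 18. The shares over all genes were 4.24% and 0.199%. The list medians were 1.45 and 1.81. lyz, the lysozyme gene, was listed at 0 in all 6 CV libraries of series M and had 0, 868 and 2161 FPKM in CVP, where layers 6 and 17 were at 0. In series Z it had 0, 264 and 948 FPKM in CV and 345, 5837 and 9003 in CVP, where layer 6 alone was lower in CVP. The differences were 6.79 ± 1.64 (adjusted p = 0.0117) and 4.72 ± 1.46 (adjusted p = 0.174). npsn, the gene of the protease nephrosin, had 0, 8.85 and 34.8 FPKM in CV and 9.27, 302 and 702 in CVP of series Z (4.89 ± 0.97, adjusted p = 0.00851), and differed by 1.45 ± 1.40 in series M (adjusted p = 0.599). Without layers 22 and 25, 0 of 17 neutrophil genes passed in series Z, with a median of 1.62. With the covariate for genes detected 1 was called higher in series M and 2 in series Z. mpx and lyz were then not called in series M (limma adjusted p = 0.0972 and 0.127). With CV and CVP libraries alone 2 of 8 and 2 of 16 tested were called. The caudal artery had lyz medians of 0 FPKM in series M and 983 in series Z. The summed FPKM of the list was higher in CVP in 6 of 6 sections for series M and in 5 of 6 for series Z.

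For the other blood lists calls came from series M alone. The macrophage list had 1 of 12 members higher in series M, the transcription factor irf8, and 0 of 13 in series Z, while its summed FPKM was higher in CVP in 6 of 6 sections of both series. Of the erythroid genes blvrb, epb41b, epor and gata1a rose in series M, 4 of 18, and 0 of 19 were called in series Z, with list medians of 2.34 and 0.51. Red cell RNA varied greatly between sections of series Z, and the globin gene hbae3 ran there from 1398 to 223730 FPKM in CV and from 1253 to 134960 in CVP (0.32 ± 1.00, adjusted p = 0.96). Blood progenitor genes gave 2 of 11 higher in series M, the receptor gene kita (3.66 ± 0.86, adjusted p = 0.00942) and the transcription factor gene lmo2 (3.61 ± 0.82, adjusted p = 0.00756), and 0 of 14 in series Z, with list medians of 2.06 and 0.82. lmo2 had medians of 92.2 FPKM in CV and 78.9 in CVP of series Z. Of the thrombocyte genes, 1 of 5 (mpl) and 0 of 8 rose. Over all genes 4.24% were higher in series M and 0.199% in series Z. With the covariate for genes detected, 0 erythroid, 0 blood progenitor and 0 thrombocyte genes were called higher in series M. With CV and CVP libraries alone 2 of 10 erythroid and 0 of 6 blood progenitor genes tested were called, and under quantile scaling 0 erythroid genes and 1 blood progenitor gene.

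Among 19 chemokine and niche factor genes, 14 were tested in series M and 13 in series Z, and 3 rose in each. The shares higher over all genes were 4.24% and 0.199%. cxcl12a and vcam1b were shared, ccl25b rose in series M and ackr3a in series Z. ccl25b, a chemokine gene, had 0, 33.6 and 632 FPKM in CV and 135, 791 and 2443 in CVP of series M (5.22 ± 1.27, adjusted p = 0.0126). In series Z it had 440, 533 and 981 FPKM in CV and 589, 1453 and 2189 in CVP, higher in 6 of 6 sections (1.11 ± 1.33, adjusted p = 0.843). ackr3a, a receptor gene that takes up Cxcl12, rose by 2.69 ± 0.59 in series Z (adjusted p = 0.0223), from at most 0.621 FPKM in CV to a median of 9.45 in CVP, and differed by -0.07 ± 0.52 in series M. cxcl12b, the second copy of the ligand gene, had 2.01 ± 0.81 and 2.93 ± 1.00 (adjusted p = 0.142 and 0.246). The signalling receptors cxcr4a and cxcr4b did not pass in either series (adjusted p from 0.596 to 0.803).

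Muscle RNA was also higher in the plexus of series M. Of 21 muscle genes, 11 rose in series M and 0 fell, with a list median of 2.61, and 0 of 21 were called in series Z, with a median of 1.21. Over all genes 4.24% were higher in series M. With the covariate for genes detected 1 muscle gene was called higher in series M, with CV and CVP libraries alone 5 of 20 tested, and under quantile scaling 7. The fast myosin gene myhz2 had 0, 0.642 and 3.21 FPKM in CV and 5.74, 94.2 and 156 in CVP of series M, without overlap (4.89 ± 0.71, adjusted p = 6.63e-05). In series Z it had 0 to 2.68 FPKM in CV and 0.938 to 21.0 in CVP (1.70 ± 0.73, adjusted p = 0.408). The list's summed FPKM was 1305 to 22792 in CVP and 671 to 3123 in CV of series M, and 195 to 3289 against 34.8 to 1866 in series Z. It was higher in CVP in 6 of 6 sections of both series, and lay between 72153 and 302640 in the muscle captures. The part of muscle RNA in other differences of series M was not tested.

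Pigment cell genes rose in series M, 4 of 16 tested (pnp4a, tyr, tfec and xdh), and 0 of 15 were called in series Z. tyr, the tyrosinase gene of melanin synthesis, had 0 to 9.87 FPKM in CV and 6.77 to 78.4 in CVP of series M (4.13 ± 0.74, adjusted p = 0.00081). Lysosomal genes gave 3 of 21 higher in series M and 0 of 21 called in series Z. Cell cycle genes gave 3 of 22 (ccnd1, mcm2 and mcm7) and 0 of 21, and posterior hox genes 2 of 20 (hoxb9a and hoxd9a) and 0 of 22. The notochord and cartilage list had 1 of 15 (ctgfa) and 0 of 13, the inflammatory list 1 of 10 (socs3b) and 0 of 10, and the immediate early and stress list jun higher and atf3 lower among 14, and 0 of 16. Of the signalling genes wnt2 rose in series M, 1 of 17, and bmp2a, a gene of the fin fold, fell in series Z, 1 of 17. Stromal genes gave 0 of 19 and 0 of 20, matrix proteases 0 of 17 and 0 of 17, and neural genes 0 of 18 and 0 of 18. These shares stand beside 4.24% of all genes higher in series M and 0.199% in series Z, and 0.657% and 0.242% lower. With the covariate for genes detected 0 members of the lists in this paragraph were called higher in series M. atf3 was then not called lower (limma adjusted p = 0.182). With CV and CVP libraries alone 3 of 14 pigment cell genes tested were called higher in series M.

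**Figure D5:**
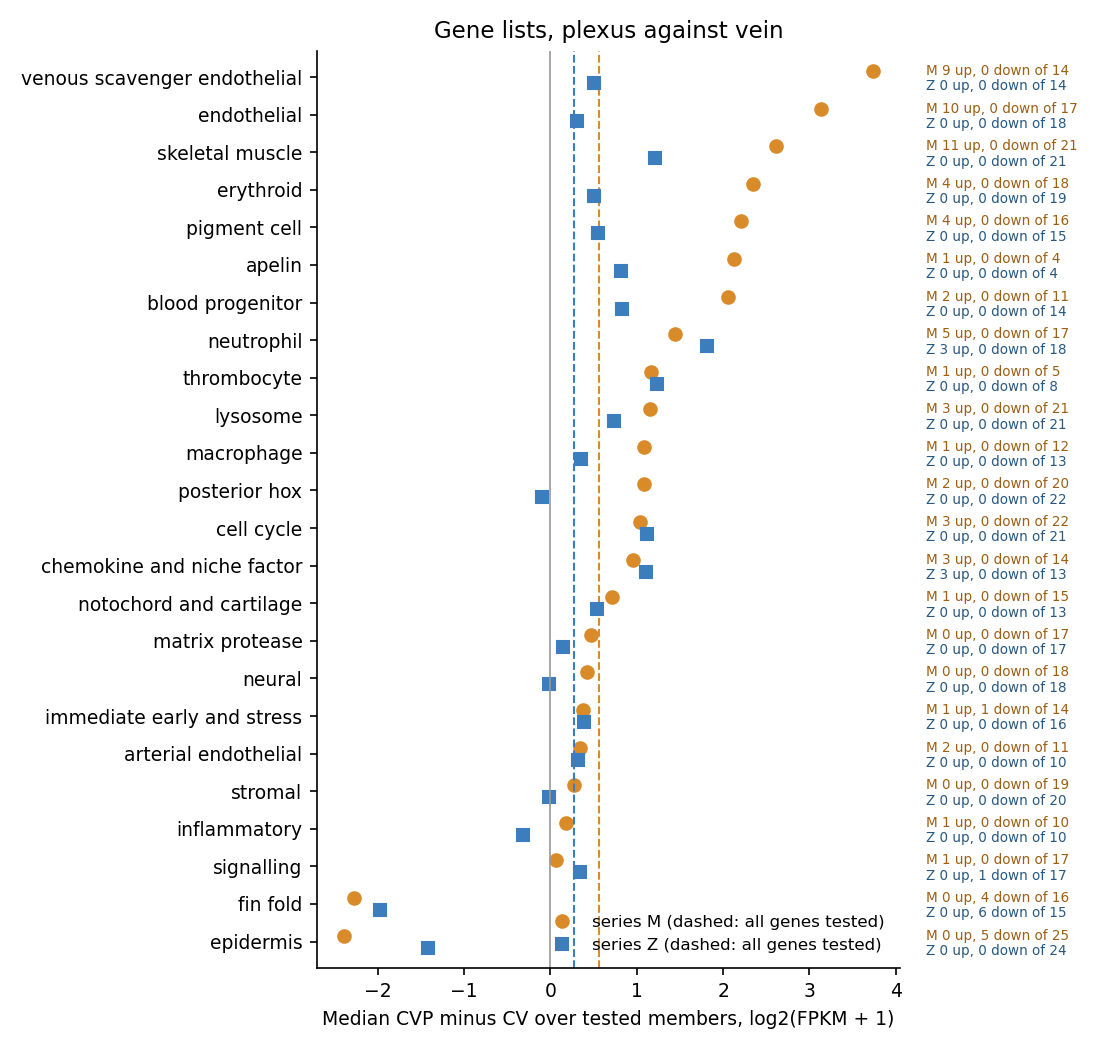
Each row is a gene list, with its median CVP minus CV difference over tested members on the log2(FPKM + 1) scale in series M (orange circles) and series Z (blue squares). Dashed lines mark the median of all genes tested, and counts at the right give members called higher (up) and lower (down). The venous scavenger endothelial list stands at 3.74 in series M and 0.50 in series Z, and the fin fold and epidermis lists lie below 0 in both.

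Series Z alone called 25 genes higher and 21 lower. Of these, 23 and 19 were tested in series M, and 0 passed the test of the difference between series. agtr1b, the gene of an angiotensin receptor, had 14.2, 22.4 and 41.4 FPKM in CV and 0 in all 6 CVP libraries of series Z (-4.59 ± 0.52, adjusted p = 1.34e-06), and -0.48 ± 0.87 in series M (adjusted p = 0.802), where 4 of 6 libraries of either group were at 0. ucp1, an uncoupling protein gene, had 8.42, 27.4 and 103 FPKM in CV and was at 0 in 5 of 6 CVP libraries of series Z (-4.47 ± 0.51, adjusted p = 1.34e-06), and was too low in series M to be tested. The matrix gene fmodb fell by 4.50 ± 0.73 in series Z (adjusted p = 0.000455) and differed by -2.64 ± 0.92 in series M (adjusted p = 0.0854). msx1b differed by -3.67 ± 0.85 in series Z (adjusted p = 0.0361) and -3.55 ± 1.15 in series M (adjusted p = 0.062), so that it missed in series M with a difference of like size.

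Series M alone called 101 genes lower, of which 92 were tested in series Z and 2 passed the test of the difference. The largest among the named ones was tmem176l.4, a membrane protein gene, with 41.1, 165 and 334 FPKM in CV and 0 in 5 of 6 CVP libraries, and 21.7 in the other. It fell by 6.40 ± 1.03 in series M (adjusted p = 0.00021) and differed by -2.22 ± 1.11 in series Z (adjusted p = 0.489). spint2, a gene of an epithelial protease inhibitor, fell by 5.65 ± 1.16 (adjusted p = 0.00317) and agr1 by 5.29 ± 1.34 (adjusted p = 0.016). In series Z they differed by -2.81 ± 1.04 and -4.16 ± 1.07 (adjusted p = 0.303 and 0.077).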

How the data were processed

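The authors deposited FPKM values, 1 table per series with 25067 genes. FastQC, HISAT, HTSeq, DESeq2 and the build GRCz10 are named per the submitters' processing notes, without versions or roles. Every column was tied to a library by its name (0 were not). The annotation at hand is of another build, so genes are given by symbol only, and sequences were not used here.

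Whole reads were recovered from the steps of the FPKM values for all 23948 (series M) and 23482 (series Z) genes above 0. Step times read total was constant within 0.135% and 0.145%. Reads of a gene are known only up to a divisor common to all its libraries, so a gene with few reads can come out too low. They gave depths, limits for counts of 0 and thinned tables. PCR copies without molecular identifiers are not independent molecules. In series Z the library of left muscle from layer 6 equalled the rounded mean of those of layers 1 and 10 in all 7859 genes and was left out, leaving 36 and 35 libraries.

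limma 3.58.1 (R 4.3.3) was run with its trend option on log2(FPKM + 1) for genes that reached 1 FPKM in 6 or more libraries, each series alone, with all 6 regions sharing 1 estimate of spread and section as a block. The pairing comes from the layer number in the labels, which marks a shared section. All tests were two-sided. A joint fit tested the difference between series. The procedure was tested on simulated data. For thinned tables and other values pandas 2.3.3 and numpy 2.4.6 were used.

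The members, the 24 lists and the named genes were chosen with earlier results of these data known. Named genes are up to 10 per direction called in both series, up to 6 per direction and series called in 1, of each list up to 4 called in both or else 2 called in 1, a fixed panel, and up to 5 per direction in the test between series. Clone names were left out. fah, hgd, FBLN1, tbx3a, ponzr3, msx1b, msx2b, ephb4a, tie1, ccl25b and other list members named beside their counts fall outside this rule and were chosen after their values were seen. Alternatives were another pseudocount (0.1), other filters, quantile scaling, no block, fewer regions, a covariate, thinned reads, and sections left out. The separate values of 1 listed gene are not reported here.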

Additional observations from a re-analysis of the deposited data

Results flagged for a closer look

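Of 120 groups of 6 libraries (30 genes, CV or CVP, series M or Z), 24 held a library that stood apart from the others of its group at Dixon's 95% level. For normal values chance flags about 1 in 20, but that rate does not hold here, since in 11 of the 24 the other 5 libraries were all at 0 and any value above 0 then stands apart. The CV and CVP libraries of layer 17 in series M account for 9 of them. In CV of layer 17 the high FPKM values were cxcl12a at 3.16, ebf2 at 13.2, pcdh7b at 8.70, stab1 at 24.2 and aplnra at 5.63, with the other 5 CV libraries at 0. These rest on 1, 4, 5, 23 and 1 reads. In CVP of layer 17 the high values were and2 at 2859, vcanb at 363 and bhlha9 at 335, and mrc1a was low at 144. Without layer 17 the calls of series M rose from 775 to 1249 higher and from 120 to 222 lower.

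In series M, dlx5a was low at 0 in CV of layer 15 and hbae3 low at 0 in CVP of layer 12. Layer 6 of series Z was low in CVP for lyz (345) and npsn (9.27) and in CV for hpdb (25.6). Layer 19 was high in CV for vcam1b (2.49) and pcdh7b (10.8). Layer 22 was high in CVP for and3 (77.2) and dlx5a (3.38) and low in CV for lyz (0). Layer 25 was high in CV for tgfb1b (1.13) and low for krt4 (5136). Layer 1 was high in CVP for bhlha9 (13.5) and cdh5 (90.4), and layer 10 was high in CV for kdrl (156).

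The CVP minus CV difference itself, on the log2(FPKM + 1) scale, differed between series M and series Z at adjusted p under 0.05 (limma, joint fit) for these named genes, given as series M less series Z. It was 6.91 for ocstamp, 6.57 for lyve1a, 6.40 for ube2g2, 6.35 for cyp1a, 6.25 for aplnra, 6.04 for stab1, 4.62 for lyve1b and -5.51 for dmrt1. The summed FPKM of the venous scavenger endothelial list moved with them, with medians of 191 in CV and 1894 in CVP of series M and of 1121 and 1824 in series Z. The part of this shift in each gene's difference was not tested.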

How the results depend on the processing

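No named gene that was called changed its direction under any alternative run, while the number of calls depended on which libraries shared the estimate of spread. CVP higher and lower counts in series M (775 and 120) were 109 and 56 with CV and CVP libraries alone under the replicate block, and 97 and 34 with CA added. They were 52 and 14 with detected genes as a covariate, 59 and 44 on thinned reads, 208 higher under quantile scaling (242 and 237 also without layer 17, an alternative chosen after seeing the data), and 66 lower with a pseudocount of 0.1. In series Z (33 and 40) the counts were 5 and 10, 6 and 16, and on thinned reads 4 and 10. Series Z had 15 higher under quantile scaling, 17 and 20 with a pseudocount of 0.1, 21 higher without a filter, and 6 and 16 without layers 22 and 25. Both series shared 8 and 19 calls, against 1 and 9 with CV and CVP alone, 5 and 11 with a pseudocount of 0.1, 3 higher under quantile scaling, and 4 and 11 without layers 17, 22 and 25. The 30 differences between series became 2, 11 with a pseudocount of 0.1, and 93 without layer 17. Without the replicate block series M had 773 and 109 calls, and series Z had 34 and 39.

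Leaving out 1 section gave 358 to 1249 higher and 55 to 222 lower in series M, 11 to 36 and 20 to 41 in series Z, and 4 to 9 and 7 to 24 in both. aplnra in series Z, not called, changed sign on thinned reads (0.26) and without layer 6 (0.11) or 22 (0.05), in a range of -0.29 to 0.11 over sections left out. Of the alternatives for named genes, 774 kept and 251 lost the call for series M, and 351 and 134 did for series Z. The cause of these changes was not tested. With fewer regions fewer genes pass the filter, 8699 in series M and 9872 in series Z, and the median standard error was 1.18 against 0.929 with all regions in series M and 0.829 against 0.857 in series Z. At 75007 reads in the shallowest CV library, a gene listed at 0 may still be present.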
